A study of Mus musculus with 6 samples.

Results

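The genes described here encode proteins that join neighbouring epithelial cells. They are the claudins Cldn1, Cldn3, Cldn4, Cldn7 and Cldn18, the tight junction proteins Ocln, Tjp1 and F11r, the adherens junction cadherin Cdh1, and Epcam. Every probe set whose platform annotation names only 1 of these 10 symbols was taken, which gave 20 of the 45101 probe sets on the array (10 of the 18194 genes that a probe set names alone), and no probe set naming several genes holds any of them. The study compared lungs of 3 wild type mice fed a high fat diet with lungs of 3 wild type mice fed a control diet, with 1 Affymetrix array per mouse. The labels used here give no strain, age, sex or length of feeding, so all that the 2 groups are known to share is the wild type genotype and the tissue.

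Tight junctions seal the space between epithelial cells. Claudins line up as strands across that space and set which ions and solutes pass, occludin lies in the same strands, and Tjp1 (ZO-1) ties them to actin inside the cell. In the lung this seal keeps fluid out of the air spaces, and Cldn18 is the claudin best known for the alveolar epithelium. Adherens junctions lie beside the tight junctions and are built on E-cadherin, the product of Cdh1, bound to catenins.

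Cldn3 and Cldn7 were higher in high fat lungs and 1 of 2 Cldn18 probe sets was lower, so the upstream sequences of these genes are shown first. RefSeq windows (build GRCm38.p6) were matched by symbol for 9 of the 10 genes, all but Cdh1. Each line gives the 250 bases before a RefSeq start site, 5′ to 3′ on the strand of the gene. Cldn7 and Cldn18 have 2 start sites each. Capitals mark CACCTG or its reverse complement CAGGTG, the E-box letters read by the Snai and Zeb repressors of epithelial junction genes.
Cldn3, chr5:134985964-134986213, plus strand: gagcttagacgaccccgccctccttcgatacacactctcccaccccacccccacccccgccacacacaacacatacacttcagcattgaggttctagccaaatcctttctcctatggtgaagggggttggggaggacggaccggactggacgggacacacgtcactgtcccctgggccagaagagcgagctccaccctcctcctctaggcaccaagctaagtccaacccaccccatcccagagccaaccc
Cldn7 first start site, chr11:69964529-69964778, plus strand: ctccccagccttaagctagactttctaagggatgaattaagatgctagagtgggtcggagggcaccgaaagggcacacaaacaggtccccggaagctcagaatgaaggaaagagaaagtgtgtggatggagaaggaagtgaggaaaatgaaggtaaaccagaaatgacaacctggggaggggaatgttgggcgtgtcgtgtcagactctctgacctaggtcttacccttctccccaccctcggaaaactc
Cldn7 second start site, chr11:69965171-69965420, plus strand: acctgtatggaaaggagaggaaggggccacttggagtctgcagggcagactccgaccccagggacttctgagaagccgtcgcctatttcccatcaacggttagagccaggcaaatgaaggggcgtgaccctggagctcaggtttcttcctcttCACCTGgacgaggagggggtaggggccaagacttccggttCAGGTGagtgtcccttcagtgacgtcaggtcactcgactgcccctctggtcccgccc
Cldn18 first start site, chr9:99717268-99717517, minus strand: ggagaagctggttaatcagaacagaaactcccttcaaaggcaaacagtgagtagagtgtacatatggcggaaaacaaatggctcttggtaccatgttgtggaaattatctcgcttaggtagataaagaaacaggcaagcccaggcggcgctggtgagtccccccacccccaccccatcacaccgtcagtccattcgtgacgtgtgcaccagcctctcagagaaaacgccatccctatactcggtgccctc
Cldn18 second start site, chr9:99710064-99710313, minus strand: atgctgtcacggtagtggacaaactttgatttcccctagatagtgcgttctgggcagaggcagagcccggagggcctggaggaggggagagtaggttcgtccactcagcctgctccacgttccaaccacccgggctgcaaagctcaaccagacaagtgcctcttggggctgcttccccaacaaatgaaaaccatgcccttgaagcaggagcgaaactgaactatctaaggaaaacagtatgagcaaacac

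The E-box letters were found on either strand 2 times before the second start site of Cldn7 and in none of the other 4 windows shown. Among the 12 windows of the 9 matched genes, 5 held at least 1 copy, namely those of Cldn4, Epcam and F11r and the second windows of Cldn7 and Ocln. Over all 32851 RefSeq windows of the same length, 17.2 percent held a copy. The letters AACCNGTT, the core read by grainyhead factors such as Grhl2, were in 0 of the 12 windows and in 1.79 percent of all windows. These matches are of letters only.

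Each signal is a MAS5 intensity, and on every array the mean of the signals, trimmed by 2 percent at each end, is 500. The number of arrays limits the precision of every value. A signal depends on its own probes, so levels are compared between mice and not between probe sets. Array medians were 113.4 to 128.7 with the high fat diet and 143.3 to 150.3 with the control diet. Centring arrays on that median would raise every log2 difference by 0.27. The 3' over 5' signal ratio, a measure of RNA quality, was 0.854 to 0.957 for Gapdh in high fat lungs and 0.743 to 0.795 in control lungs. For b-Actin it averaged 1.52 in high fat lungs and 1.31 in control lungs (exact permutation p = 0.1 for each gene, two-sided, the smallest that 3 against 3 allows). The 3' over middle ratio overlapped between the groups for both genes. It averaged 0.990 in high fat lungs and 0.986 in control lungs for Gapdh, and 1.28 and 1.24 for b-Actin.

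The lung label fitted the markers. Alveolar type II markers summed to 134958 to 153848 signal units in high fat lungs and 103386 to 158161 in control lungs, with 0 of 6 tested genes called and 1 with an unadjusted limma p under 0.05. None of 6 club and secretory markers was called (0 with an unadjusted p under 0.05), nor were any of 6 ciliated cell markers (4 with an unadjusted p under 0.05), although their sums were 11804 to 15469 in high fat lungs and 9756 to 9927 in control lungs. Among 7 alveolar type I markers, 2 had an unadjusted limma p under 0.05. Only the anchoring protein Akap5 was called, and it fell to 0.567 times.

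One library of each group stood apart on markers of other tissues. Control replicate 1 held squamous epithelial transcripts, with a signal of 30382 for the keratin Krt4, while the high fat lungs had 28.9, 49.9 and 71.4 and the other control lungs 84.6 and 280.6. Its sum over 4 tested squamous markers was 52867, against 251.3 to 310.6 in high fat lungs and 322.5 to 570.6 in the other control lungs. High fat replicate 1 stood apart on muscle markers, with a cardiac sum of 134855, against 39756 and 58273 in the other high fat lungs and 18015 to 41603 in control lungs. Its skeletal muscle sum was 15978, against 1160 and 1426 in the other high fat lungs, while control replicate 1 had the highest of all, 43180. Squamous epithelium makes junction proteins of its own, so the called junction genes are given with and without control replicate 1. Without both of these libraries the 4 Cldn3 probe sets, Cldn7 and Cldn18 1425445_a_at stayed called (highest limma adjusted p 0.0275), and Cdh1 did not (0.0779).

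**Figure D1:**
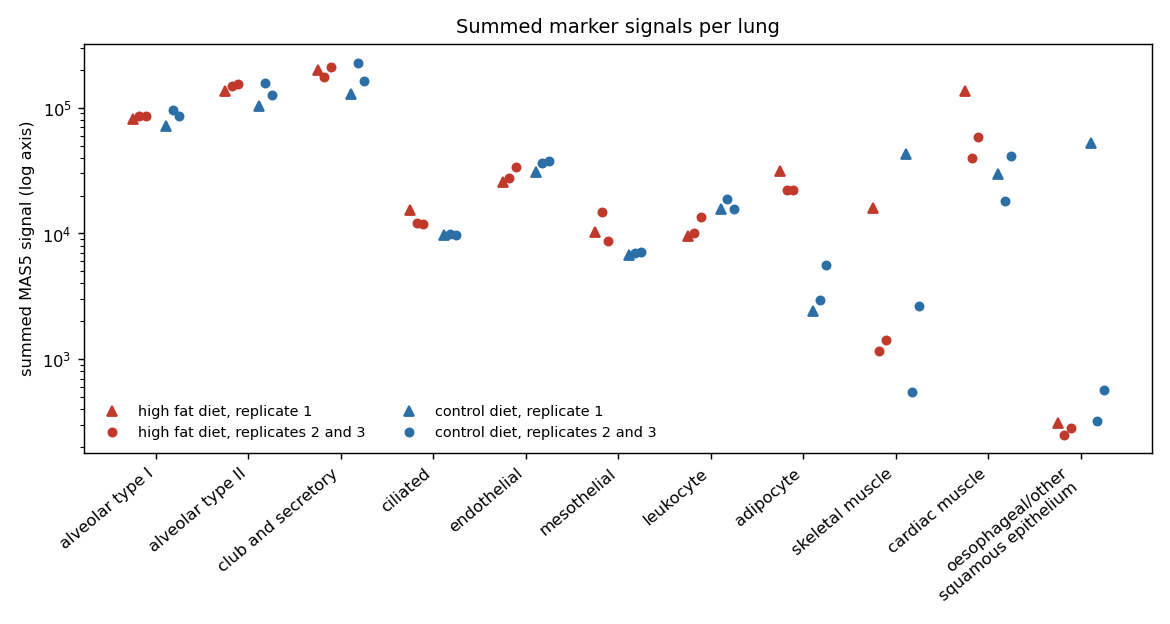
Summed MAS5 signal of the tested markers of 11 cell types in each lung, on a log axis, high fat lungs in red and control lungs in blue, with replicate 1 of each group as a triangle. Control replicate 1 stands at 52867 for squamous epithelium, where all other lungs are at 570.6 or lower, and adipocyte sums are 22173 to 31324 in high fat lungs and 2408 to 5617 in control lungs.

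Of the 20 probe sets, 17 passed the filter on dim signals, a mean log2 signal at or above the 40th percentile of all probe sets (6.14, a signal of 70.3), and each of the 10 genes had at least 1 that did. Of these 17, 6 rose in high fat lungs, 1 fell and 10 were not called (limma, adjusted p under 0.05 over 27022 probe sets). That is 41.2 percent called, against 12.9 percent of all tested probe sets, of which 4.63 percent rose and 8.27 percent fell. The 10 genes were chosen with earlier results of these data known, so the shares in this paragraph are descriptions and not tests. The 6 that rose belong to 3 genes, since 4 of them measure Cldn3. The median log2 difference of the 17 was 0.27, beside -0.06 over all tested probe sets. The 2 groups did not overlap for 9 of the 17, 7 higher and 2 lower in high fat lungs, which is set beside 36.2 percent of all tested probe sets (14.6 percent higher and 21.7 percent lower). With 1 probe set per gene, the brightest, 3 of 10 genes rose and 0 fell (1 lower at an unadjusted limma p under 0.05), against 4.56 and 2.2 percent of all 12689 genes. Cldn18 is then read by 1449428_at, so the fall of its other probe set, 1425445_a_at, does not count there. In bulk tissue, fewer cells of a type and less RNA per cell cannot be told apart.

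**Figure D2:**
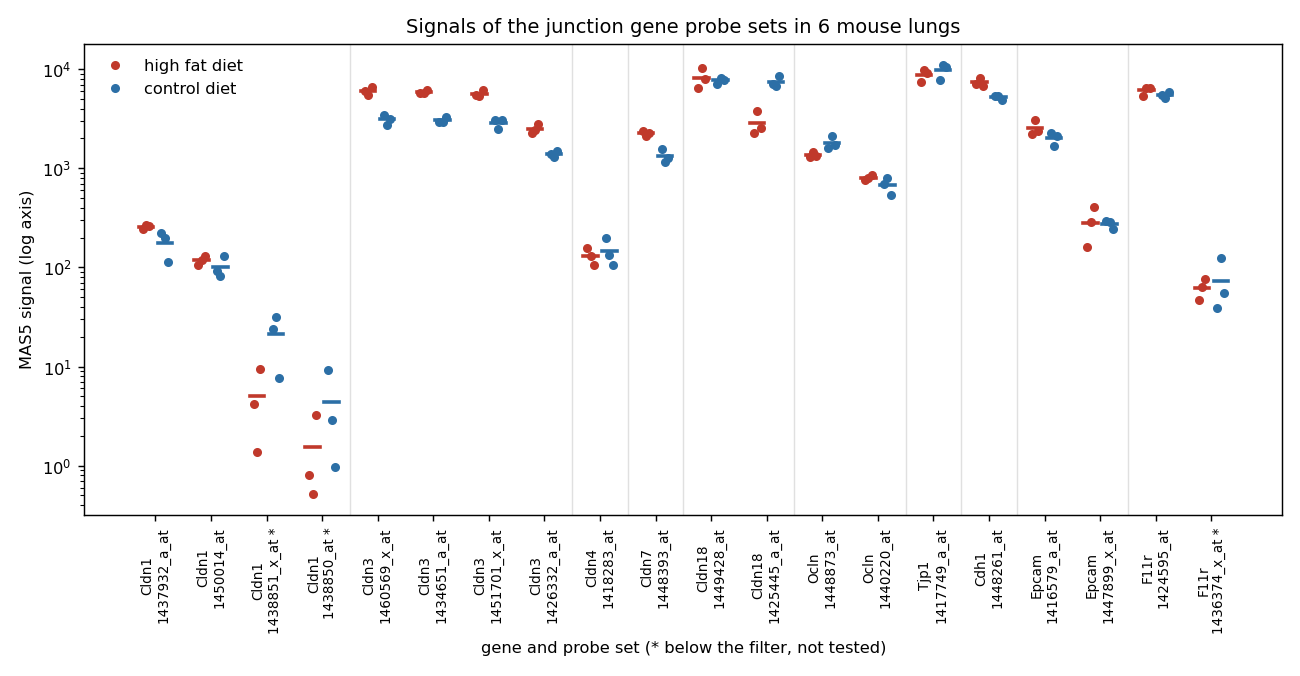
MAS5 signal of each of the 20 probe sets in the 3 high fat lungs (red) and 3 control lungs (blue), on a log axis, with a bar at each group's mean and an asterisk on the 3 probe sets below the filter. All high fat points lie above all control points for the 4 probe sets of Cldn3 and for Cldn7, Cdh1 and Cldn1 1437932_a_at. They lie below all control points for Cldn18 1425445_a_at and Ocln 1448873_at.

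Cldn3, a sealing claudin, had the clearest rise. Its brightest probe set, 1460569_x_at, had signals of 6050, 5537 and 6594 in high fat lungs, against 3450, 2748 and 3127 in control lungs. Every high fat lung was above every control lung. The log2 difference was 0.97 ± 0.13 (SE, n = 3 each), a rise of 1.95-fold (limma adjusted p = 0.00528). The other 3 probe sets of Cldn3 behaved alike, at 1.93-fold for 1434651_a_at, 1.98-fold for 1451701_x_at and 1.78-fold for 1426332_a_at (limma adjusted p = 0.00323, 0.00478 and 0.00696). For 1426332_a_at, the dimmest of the 4, signals were 2272, 2416 and 2804 in high fat lungs and 1409, 1312 and 1488 in control lungs. These probe sets read the same transcript in the same RNA and are not independent. Probe sets ending in _x_at can hold probes that also match other transcripts, and 2 of the 4 are of that kind. All 4 were called with any 1 lung left out (highest adjusted p 0.0376, 1426332_a_at without control replicate 2), and without control replicate 1 their log2 differences were 0.83 to 1.04.

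Cldn7, a claudin that binds Epcam and also lies on the lateral membrane, had signals of 2404, 2110 and 2262 in high fat lungs, against 1563, 1144 and 1277 in control lungs. The groups did not overlap. The rise was 1.71-fold (log2 0.78 ± 0.14, SE, n = 3 each, limma adjusted p = 0.0127). Without control replicate 1 it was 0.90 on the log2 scale (adjusted p = 0.0183), but the call was lost without control replicate 2 (0.0513) or 3 (0.058).

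The 2 probe sets of Cldn18 differed: 1 fell and the other was not called. The gene is known for transcripts with alternative first exons, 1 found mainly in lung and 1 mainly in stomach, and RefSeq gives it the 2 start sites printed above. Probe set 1425445_a_at had signals of 2270, 3794 and 2522 in high fat lungs, against 7015, 6700 and 8554 in control lungs. Every high fat lung was below every control lung, and the level fell to 0.378 times (log2 -1.40 ± 0.19, SE, n = 3 each, limma adjusted p = 0.00595). It stayed called with any 1 lung left out, between -1.63 and -1.25 on the log2 scale, and was -1.44 without control replicate 1 (adjusted p = 0.0203). Probe set 1449428_at had signals of 6448, 10225 and 7988 in high fat lungs and 7108, 8240 and 7752 in control lungs. These groups overlapped, and the log2 difference was 0.07, with a 95 percent interval of -0.31 to 0.45 (limma adjusted p = 0.809).

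The 2 Cldn18 probe sets were read on the same arrays, so their ratio within each array does not depend on array scaling. The log2 ratio of 1449428_at to 1425445_a_at was 1.51, 1.43 and 1.66 in high fat lungs, against 0.02, 0.30 and -0.14 in control lungs. The means differed by 1.47 without overlap (exact permutation p = 0.1, two-sided, the smallest possible; 0.333 adjusted over 10 pairs of probe sets of 1 gene). This pair and that of Ocln were singled out after their values were seen. The Cldn3 pair 1451701_x_at and 1426332_a_at reached the same exact permutation p of 0.1 (0.333 adjusted), with means that differed by 0.15. The suffix _a_at marks a probe set that can read several transcripts of 1 gene; which Cldn18 transcripts either probe set reads was not determined here. The 3' to 5' ratios of Gapdh and b-Actin also differed between the diets, while their 3' to middle ratios overlapped. The part of RNA quality in this result was not tested.

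**Figure D3:**
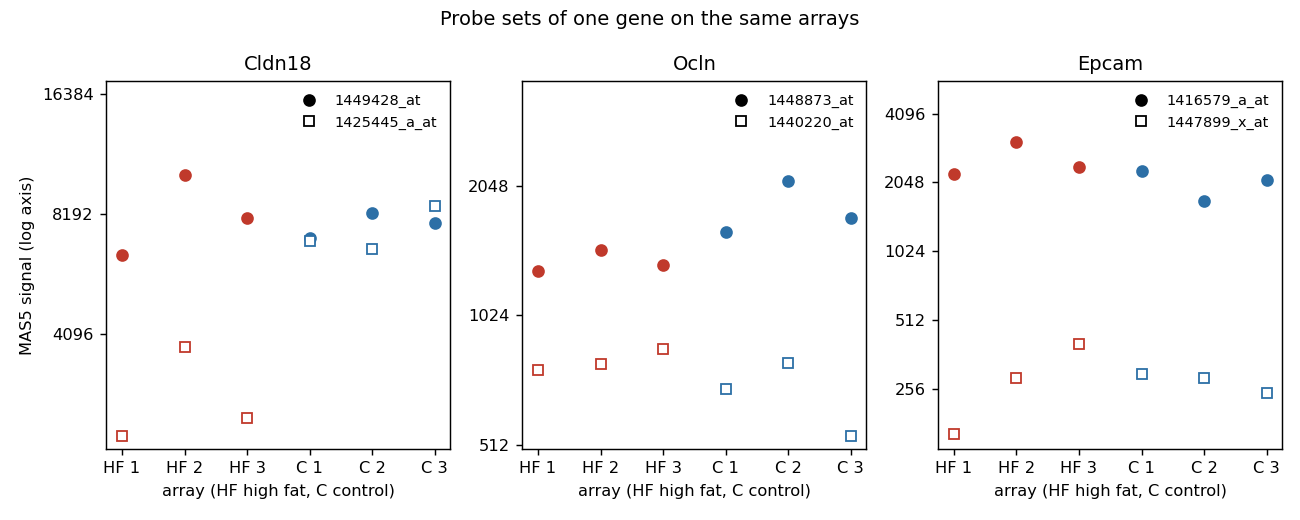
MAS5 signals of the 2 tested probe sets of Cldn18, Ocln and Epcam in each lung, on log axes, with high fat lungs (HF, red) left of control lungs (C, blue). The Cldn18 probe sets lie close together in all 3 control lungs and apart in all 3 high fat lungs, where 1425445_a_at is between 2270 and 3794 and 1449428_at between 6448 and 10225.

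Neither remaining claudin was called. Cldn1, a barrier claudin, has 4 probe sets. Its brightest, 1437932_a_at, had signals of 241.5, 266.8 and 263.1 in high fat lungs and 222.3, 198.3 and 112.3 in control lungs, without overlap but with a wide interval (log2 0.59, 95 percent interval -0.04 to 1.22, limma adjusted p = 0.185). Control replicate 3 alone lies far below, and without it the difference was 0.29. Probe set 1450014_at gave 0.24 (-0.42 to 0.91), and the other 2, 1438851_x_at and 1438850_at, were below the filter with no signal above 31.9.

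Cldn4, a close relative of Cldn3 that rises in injured alveolar epithelium, was dim. Its signals were 155.4, 131.3 and 105 in high fat lungs and 200.1, 131.9 and 105.1 in control lungs. The highest value was in control replicate 1, and the log2 difference was -0.12 with a 95 percent interval of -0.83 to 0.58 (limma adjusted p = 0.82). Without control replicate 1 it was 0.13, and it was also above 0 with quantile normalization (0.14) and median centring (0.15).

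Among the other tight junction proteins, Ocln, a strand protein with 4 membrane-spanning segments, also had a pair of unlike probe sets. Probe set 1448873_at had signals of 1300, 1455 and 1340 in high fat lungs, against 1602, 2100 and 1725 in control lungs. The groups did not overlap, but the difference was not called (log2 -0.40, 95 percent interval -0.70 to -0.10, limma adjusted p = 0.0801). Probe set 1440220_at had 764.7, 788.8 and 856.9 in high fat lungs and 690.7, 794.1 and 536.2 in control lungs (log2 0.27, interval -0.10 to 0.65, limma adjusted p = 0.296), and rose only after median centring (0.55, adjusted p = 0.0441). Within arrays the log2 ratio of the first to the second was 0.77, 0.88 and 0.65 in high fat lungs, against 1.21, 1.40 and 1.69 in control lungs, without overlap (exact permutation p = 0.1, 0.333 adjusted over the 10 pairs).

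Tjp1, the scaffold that links claudins and occludin to actin, had signals of 7373, 9873 and 9248 in high fat lungs and 7773, 10918 and 10600 in control lungs. In both groups replicate 1 was the lowest, and the groups overlapped (log2 -0.14, 95 percent interval -0.53 to 0.25, limma adjusted p = 0.617; 0.13 with median centring). F11r encodes JAM-A, an immunoglobulin-type adhesion molecule also found on leukocytes, platelets and endothelium. Its probe set 1424595_at had 5413, 6500 and 6398 in high fat lungs and 5467, 5089 and 5853 in control lungs. The interval of its log2 difference, -0.12 to 0.43, includes 0 (limma adjusted p = 0.411). With median centring the difference was 0.43 and was not called either (adjusted p = 0.0621). The other F11r probe set, 1436374_x_at, was below the filter, at 47.2 to 75.7 in high fat lungs and 39.3 to 124.4 in control lungs.

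Cdh1, the E-cadherin of adherens junctions, had signals of 7093, 8165 and 6817 in high fat lungs, against 5322, 5372 and 4848 in control lungs. Every high fat lung was above every control lung, and the rise was 1.42-fold (log2 0.50 ± 0.12, SE, n = 3 each, limma adjusted p = 0.0276). The call did not survive the loss of control replicate 1 (0.52, adjusted p = 0.0592), 2 (0.0724) or 3 (0.114) or high fat replicate 2 (0.0752), with log2 differences of 0.43 to 0.56 with any 1 lung left out.

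Epcam, an adhesion molecule of simple epithelia that holds Cldn7 at the membrane, was not called. Probe set 1416579_a_at had 2220, 3070 and 2403 in high fat lungs and 2289, 1694 and 2099 in control lungs. High fat replicate 2 was the highest lung and the groups overlapped (log2 0.34, 95 percent interval -0.03 to 0.70, limma adjusted p = 0.193). The dimmer 1447899_x_at varied more among high fat lungs, at 162, 284.8 and 403.7, against 295.8, 285.9 and 244.8 in control lungs, and its difference of -0.05 took either sign depending on the setting.

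**Figure D4:**
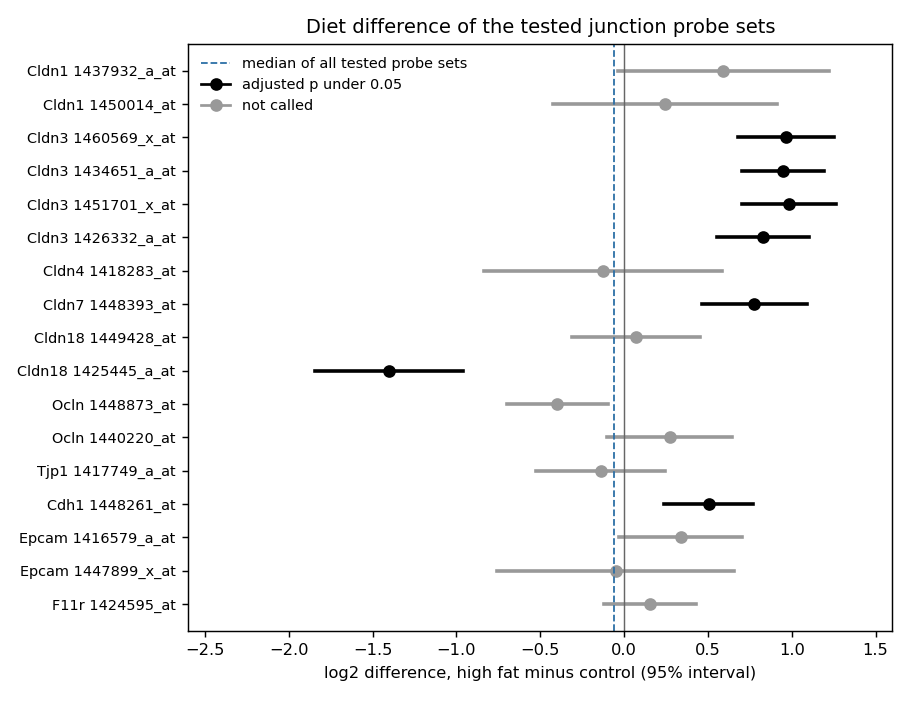
Log2 difference, high fat minus control, of the 17 tested probe sets with 95 percent limma intervals, black where the adjusted p was under 0.05 and grey otherwise, with a dashed line at the median of all tested probe sets (-0.06). The 4 Cldn3 probe sets lie between 0.83 and 0.98, Cldn7 and Cdh1 are at 0.78 and 0.50, and Cldn18 1425445_a_at is at -1.40.

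Lists of other junction genes were read with 1 representative per gene, its brightest probe set, adjusted over all 12689 genes. Of 83 genes in 7 lists, 68 were tested, 6 rose, 0 fell and 62 were not called. At an unadjusted limma p under 0.05 there were 26 of the 68, 22 higher and 4 lower. That is 8.82 percent called, against 6.75 percent of all genes, and a median log2 difference of 0.16, beside 0.06 over all genes. These lists too were chosen with earlier results of these data known. With 1 lung left out, 0 to 5 of the 68 were called.

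Among other claudins, Cldn8, a claudin of tight epithelia, rose 1.89-fold, with signals of 345.6, 434.3 and 430.1 in high fat lungs, against 270, 222.8 and 160.2 in control lungs (limma adjusted p = 0.0497, and 0.0562 without control replicate 1). Its call was lost in all 6 leave-one-out fits, with a limma adjusted p of up to 0.145 without control replicate 3. Cldn8 was 1 of 7 tested claudins of this list, which had a median of 0.43 and 6 positive differences (6 genes with an unadjusted limma p under 0.05). Cldn10, Cldn12, Cldn15, Cldn22 and Cldn23 were higher, at 1.35, 1.28, 1.74, 2.17 and 1.22-fold. None of these was called (limma adjusted p = 0.104, 0.16, 0.0508, 0.0859 and 0.735). The endothelial claudin Cldn5 was lower, at -0.42 on the log2 scale, and was not called either (adjusted p = 0.184). Of 19 other tight junction proteins, only Lsr, the angulin of tricellular junctions, rose (1.65-fold, adjusted p = 0.0423), and their median was 0.07. None of 11 tested adherens junction partners was called (3 with an unadjusted limma p under 0.05; smallest adjusted p 0.1 for Afdn at 0.42, then 0.112 for Nectin2 at 0.64). This list holds the catenins that bind Cdh1, of which Ctnnb1, Ctnna1 and Ctnnd1 were at 0.18, 0.26 and 0.16 on the log2 scale.

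The desmosomal cadherin Dsg2 was the 1 called gene of 8 desmosome proteins, at 1.71-fold higher (limma adjusted p = 0.035), and the list's median was -0.29. Desmosome sums showed the library that stood apart, 20162 in control replicate 1, against 8576 to 12458 in high fat lungs and 7573 and 8428 in the other control lungs. The plakin Ppl was at -1.03 with control replicate 1 and at -0.56 without it, and was called in neither case (adjusted p = 0.11 and 0.129). Of 6 partners of Epcam and epithelial proteases, the membrane serine proteases St14 (matriptase) and Prss8 (prostasin), known to act on epithelial barriers, rose 1.67-fold and 1.53-fold (limma adjusted p = 0.0279 and 0.0322). Without control replicate 1, St14 stayed called (0.035) and Prss8 did not (0.0856). That was the only one of the 6 leave-one-out fits to call St14, whose adjusted p reached 0.101 without control replicate 3. Prss8 was also called in only 1 of the 6, and its limma adjusted p reached 0.113 without control replicate 2.

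Of 12 epithelial keratins and regulators, the simple epithelial keratin Krt8 rose 1.71-fold (limma adjusted p = 0.0361), with signals of 8329, 6156 and 5174 in high fat lungs and 3965, 3372 and 3971 in control lungs. Grhl2, a transcription factor of junction genes, was at 0.53 and was not called (adjusted p = 0.0598). None of 5 tested repressors of Cdh1 was called (1 with an unadjusted limma p under 0.05), with Zeb2 at 0.45 and Zeb1 at -0.21 (adjusted p = 0.148 and 0.471). Without control replicate 1, Lsr, Dsg2 and Krt8 were not called (adjusted p = 0.0762, 0.0972 and 0.0749). The loss was not particular to that library, since each was called in only 1 of the 6 leave-one-out fits. The limma adjusted p reached 0.141 for Lsr and 0.112 for Dsg2 without control replicate 3, and 0.123 for Krt8 without control replicate 2.

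**Figure D5:**
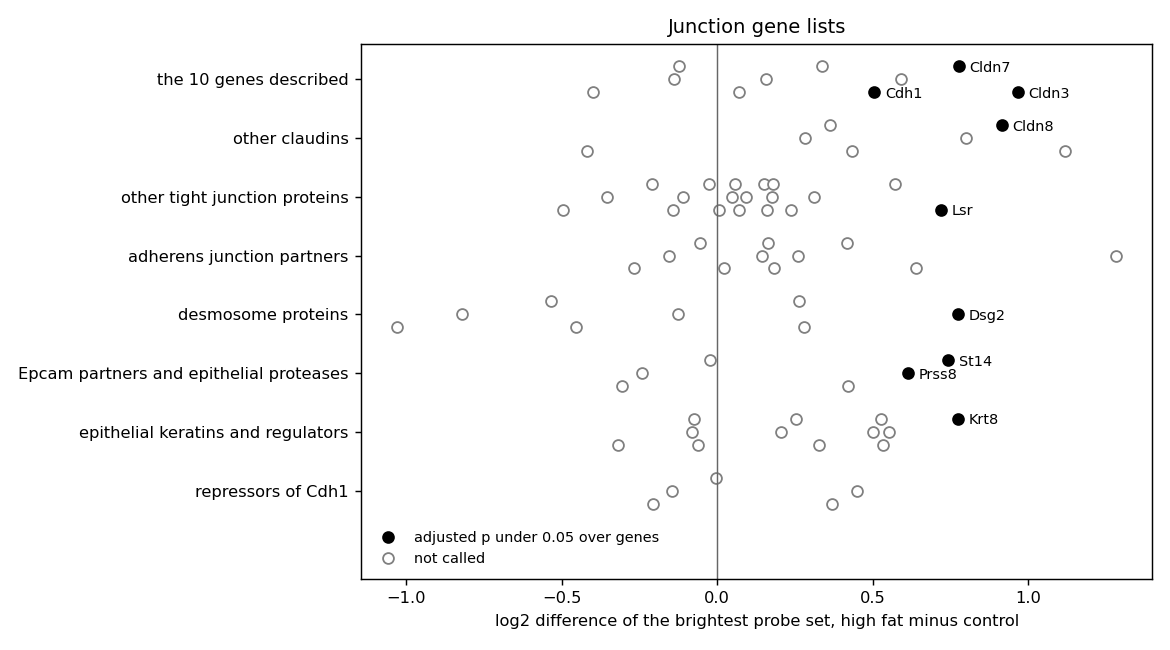
Log2 difference, high fat minus control, of the brightest tested probe set of each gene in 8 lists, filled and named where the p adjusted over genes was under 0.05. The 3 called genes among the 10 described and the 6 called among the other 68 all lie to the right of 0, between 0.50 and 0.97. Cldn18 is shown by 1449428_at and not by 1425445_a_at.

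Some markers of other cell types also differed between the 2 diet groups. All 5 tested adipocyte markers rose, among them Fabp4 by 7.66-fold, Plin4 by 4.71-fold and Adipoq by 9.71-fold, and none was listed at 0 in control lungs. Those 3 were called with any 1 lung left out, whereas Retn, also among the 5, was called in 1 of the 6 such fits and not without control replicate 1 (adjusted p = 0.0523). Of 5 mesothelial markers, Upk3b (2.65-fold), Wt1 (2.74-fold) and Lrrn4 (2.03-fold) rose, and the sums of the list were 8667 to 14713 in high fat lungs and 6718 to 7075 in control lungs. Without control replicate 1, Upk3b stayed called (limma adjusted p = 0.0352) and Wt1 and Lrrn4 did not (0.055 and 0.104). Upk3b, Wt1 and Lrrn4 were called in 5, 2 and 1 of the 6 leave-one-out fits. Their highest limma adjusted p, each without control replicate 3, was 0.0553, 0.0709 and 0.117. The mesothelium is itself an epithelium with junctions, which Krt8 also marks. Of 7 endothelial markers, Emcn and Pecam1 fell to 0.49 and 0.661 times, with sums of 25579 to 33715 in high fat lungs and 30841 to 37888 in control lungs. Of 6 leukocyte markers Coro1a fell to 0.572 times, of 6 fibroblast markers Col1a1 rose 1.76-fold, and of 6 cardiac muscle markers Myl7 rose 3.16-fold. Leukocyte sums were 9550 to 13566 in high fat lungs and 15633 to 18737 in control lungs, with 1 of 6 differences positive (2 genes with an unadjusted limma p under 0.05). Fibroblast sums were 41054 to 43465 in high fat lungs and 27283 to 35521 in control lungs, with 5 of 6 positive (4 with an unadjusted limma p under 0.05). Myl7 was highest in high fat replicate 1, at 27792, against 12042 and 14673 in the other high fat lungs, and was not called without control replicate 1 (limma adjusted p = 0.0688). Akap5, Emcn, Pecam1, Coro1a and Col1a1 stayed called without that library (adjusted p = 0.0268, 0.00782, 0.0477, 0.0417 and 0.035), but each lost the call in at least 2 of the 6 leave-one-out fits. None of 5 skeletal muscle and 4 squamous markers was called (0 and 1 with an unadjusted limma p under 0.05), nor was Krt5, the only basal cell marker tested. The part of any of these in the rise of Cldn3, Cldn7 and Cdh1 was not tested.

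The mean profile of the 10 representatives, each centred on its own mean log2 signal, was 0.06, 0.24 and 0.12 in high fat lungs and -0.04, -0.14 and -0.23 in control lungs. Of 12679 other genes, the 5 whose representatives followed it most closely over the 6 lungs were D17H6S56E-5, Thap1, Grb10, Armc6 and Cftr, with Pearson r of 0.993, 0.990, 0.989, 0.984 and 0.983. Cftr, the epithelial chloride channel, had signals of 362.5, 454.8 and 357.9 in high fat lungs, against 242.8, 182.7 and 164.5 in control lungs. These r values are a description: the 6 arrays share the diet difference and the scaling, and the 5 genes were picked as the highest of all.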

How the data were processed

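MAS5 gave the signals, per the submitters' processing notes, which name no version. The deposited values are linear intensity values above 0, with an equal trimmed mean on every array, and no detection calls were used. Genes were named from the platform annotation, in which 34958 of 45101 probe sets carry 1 symbol. After a floor of 1, signals were taken to log2. Probe sets at or above the 40th percentile of mean log2 signal, without the 64 Affymetrix controls, were tested with limma 3.58.1 in R 4.3.3 (lmFit, eBayes with an intensity trend, two-sided, 4 residual degrees of freedom, Benjamini-Hochberg adjustment). A call is an adjusted p under 0.05. Means and SEs are over 3 mice per group, and folds are 2 to the power of the log2 difference. The fit was tested on simulated data.

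All 10 genes are named with every probe set. From each other list all called genes are named, up to 6 by smallest p, otherwise the 2 with the smallest p; from marker lists up to 3 called genes. The other claudins that were not called, the catenins, Ppl, Grhl2, Krt4 and Krt5 stand outside this rule and were picked with their values in view. The members and lists were chosen with earlier results of these data known. Alternatives were other normalizations, filters, variance models and gene summaries, the replicate number as a block, and leave-one-out fits. The fit without both arrays numbered 1 was added after seeing the data. The labels used here name no batch. Promoter windows came from RefSeq (GRCm38.p6).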

Additional observations from a re-analysis of the deposited data

How the results depend on the processing

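Over 18 alternatives, the 4 Cldn3 probe sets and Cldn18 1425445_a_at kept their sign and their call wherever they were fitted. With 1 mouse left out, 5 to 7 member probe sets were called (4 to 6 higher, 1 lower), their median log2 difference ran from 0.21 to 0.32, called probe sets over the array from 721 to 3307, and called other junction genes from 0 to 5. Leaving out both arrays numbered 1 gave 1274 called probe sets and 0 other junction genes (21 at an unadjusted limma p under 0.05). Median centring gave a median of 0.55 for the members, 5445 called probe sets and 25 other junction genes, and higher calls then made up 80.1 percent of all calls, against 35.9 percent as reported and 44.7 percent with quantile normalization, which gave 10 other junction genes. Without an intensity trend 0 other junction genes were called (19 at an unadjusted limma p under 0.05), and Cdh1 was not called. One representative per gene gave 3 called members (3 higher, 0 lower) of 857 called genes, and averaging the probe sets of a gene 2 (2 higher, 0 lower) of 472, with a median of -0.013; both test fewer features, and the mean pools the unlike probe sets of Cldn18 (-0.67) and the 2 dim ones of Cldn1 (-0.60), and turned Grhl2 to -0.23 and Zeb2 to -0.38.

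The sign also turned for probe sets near 0. Cldn4 was at 0.14 with quantile normalization, 0.15 with median centring, and -0.33 to 0.13 with 1 mouse left out (0.024 without high fat replicate 3). Cldn18 1449428_at was at -0.031 with quantile normalization and from -0.10 to 0.23 with 1 mouse left out. Epcam 1447899_x_at was at 0.13, 0.22 and 0.021 with quantile normalization, median centring and array weights, -0.35 to 0.30 with 1 mouse left out (0.0028 without control replicate 1), and 0.36 without both arrays numbered 1. Median centring turned Tjp1 to 0.13 and Zeb1 to 0.068. Median centring adds 0.27 to every log2 difference, which by construction turns differences this close to 0; for the other sign changes the cause was not tested. Deviations of same-numbered mice correlated at 0.17, 0.11 and -0.04, so the numbers are not known to pair mice; with the replicate block 7 member probe sets, 5 other junction genes and 3052 probe sets were called. Dim probe sets near the filter, such as those of Cldn1 and Cldn4, are limited by signal over background.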
